A study of Mus musculus with 6 samples.

Results

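The PARP family with Parp12 was followed here as 9 genes, namely Parp1, Parp2, Parp3, Parp8, Parp9, Parp10, Parp12, Parp14 and Dtx3l, the partner of Parp9. Every probe set whose single gene symbol in the array's annotation is one of these names was taken, which gave 15 of 45101 probe sets, for 8 of the 9 genes. The annotation gives 1 further probe set to both Parp10 and Plec, so no value is attributed to Parp10. The family was chosen from the KO and Het values of these same arrays, with the height of Parp12 in KO already known. Its differences between the genotypes are therefore given as a description, and calls of its probe sets in the fit over all probe sets are counted beside the share of all, as no evidence about the family.

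The samples were lymph node CD4+YFP+ T cells of mice, isolated with a flow cytometer, on 3 arrays from KO mice and 3 from Het mice. KO mice are FoxP3-GFP-hCre x ROSA26R-YFP with both copies of Dicer flanked by lox sites (Dicerlox/lox). Het mice carry the same FoxP3-GFP-hCre and ROSA26R-YFP alleles with 1 lox copy and 1 wild-type copy (Dicerwt/lox), so the controls too carry Cre and a Dicer copy that Cre can delete. Cre is driven by Foxp3, which encodes the defining transcription factor of regulatory T cells, and YFP marks cells in which Cre has acted at any time, so a YFP+ cell need not express Foxp3 when it is sorted. The age and sex of the mice are not given in the sources used here. Arrays are lettered A, B and C within a genotype, and whether each letter is its own animal is not stated, so a p-value here is set against the scatter of these arrays alone, which may be technical. In sorted bulk cells, more cells that express a gene and more of its RNA per cell cannot be told apart.

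PARP proteins transfer ADP-ribose from NAD to other proteins. Parp1 and Parp2 build chains of it at DNA breaks and Parp3 acts in the repair of such breaks, while Parp8, Parp10, Parp12 and Parp14 belong to the members known for adding single units. Parp9, Parp12 and Parp14 are known as interferon-stimulated genes with roles in antiviral defence, and Dtx3l is a ubiquitin ligase of the Deltex family that forms a complex with Parp9.

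Values are GCRMA intensities on a linear scale, a unit without a name that sets probe sets of different genes on no common scale, so levels are compared only between arrays. All 15 probe sets passed the filter on low values (a log2 intensity above 4 on at least 3 of the 6 arrays). They read between 233.8 and 8246 over the 6 arrays, and on every array they lay above the median of all probe sets, which was 58.1 to 61.5. Array pairs of 1 genotype correlated across tested probe sets at Pearson's r of 0.977 to 0.986, and pairs of a KO and a Het array at 0.960 to 0.979. The targeted gene does not check the labels, since no source used here places its probes inside or outside the stretch that Cre removes. Its brighter probe set read 1029 to 1187 in KO and 1059 to 1203 in Het, and the other read 709.2 to 975.9 in KO and 1120 to 1345 in Het. Foxp3 read 5453, 9417 and 5420 in KO A, B and C, against 9960, 8945 and 9769 in Het A, B and C. Cd3e, Cd3d and Cd4 were measured on every array, so the labelled CD4 T cells carry their defining markers.

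Parp12, a zinc-finger member that restricts viruses when interferon induces it, had the largest KO minus Het difference of the family. Its 1 probe set (1426774_at) read 3187, 2626 and 4228 in KO A, B and C, against 517.4, 433.8 and 864.9 in Het A, B and C. Every KO array was above every Het array, and the lowest KO value was 3.04 times the highest Het value. The means were 3347 ± 813 in KO and 605 ± 229 in Het (SD, n = 3 each), a KO minus Het difference of 2.50 ± 0.31 on the log2 scale (SE), or 5.67-fold. Among the 29507 probe sets tested, 112 had a larger positive difference. Parp12 was also among the more variable members within a group, with a pooled within-group SD of 0.44 on the log2 scale, larger than that of 86.2% of tested probe sets. Leaving out any 1 array kept its difference between 2.30 and 2.79.

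The promoter windows shown are those of Parp12, the member with the largest difference, and of Dtx3l, which lies between Parp14 and Parp9. They hold the 250 bases before the transcription start in RefSeq (GRCm38.p6), written 5′ to 3′ on the gene's own strand. Capitals mark GAAA or its reverse complement TTTC, the unit that occurs as a pair in the interferon-stimulated response element. The Parp12 window is chr6:39118350-39118599 (minus strand) and the Dtx3l window is chr16:35939028-35939277 (minus strand).
Parp12: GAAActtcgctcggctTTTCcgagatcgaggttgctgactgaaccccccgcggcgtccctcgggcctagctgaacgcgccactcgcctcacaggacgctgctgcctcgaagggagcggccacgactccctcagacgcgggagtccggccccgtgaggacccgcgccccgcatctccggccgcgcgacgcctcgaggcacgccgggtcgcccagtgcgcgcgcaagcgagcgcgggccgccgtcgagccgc
Dtx3l: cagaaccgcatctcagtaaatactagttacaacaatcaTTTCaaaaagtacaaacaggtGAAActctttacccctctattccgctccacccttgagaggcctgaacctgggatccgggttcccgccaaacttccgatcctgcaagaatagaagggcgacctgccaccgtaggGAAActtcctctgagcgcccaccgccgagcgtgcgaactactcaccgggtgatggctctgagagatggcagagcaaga
Parp12 holds 2 such units and Dtx3l 3, and 66.4% of the 32851 promoter windows hold at least as many as Parp12 and 46.3% at least as many as Dtx3l (median 2). The paired form (GAAA, any 2 bases, GAAA) was searched on both strands in the full windows of 300 bases, which add 50 bases after the start. Of all windows 3.44% hold it. The table matched 6 members with 1 window each, and none of Parp1, Parp2, Parp3, Parp8, Parp12 and Dtx3l holds it, which says only that these letters are not in these windows. The 3 members without a window are Parp9, Parp10 and Parp14. The Parp12 window is GC-rich, at 73.6% G and C against 52.8% in that of Dtx3l.

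**Figure D1:**
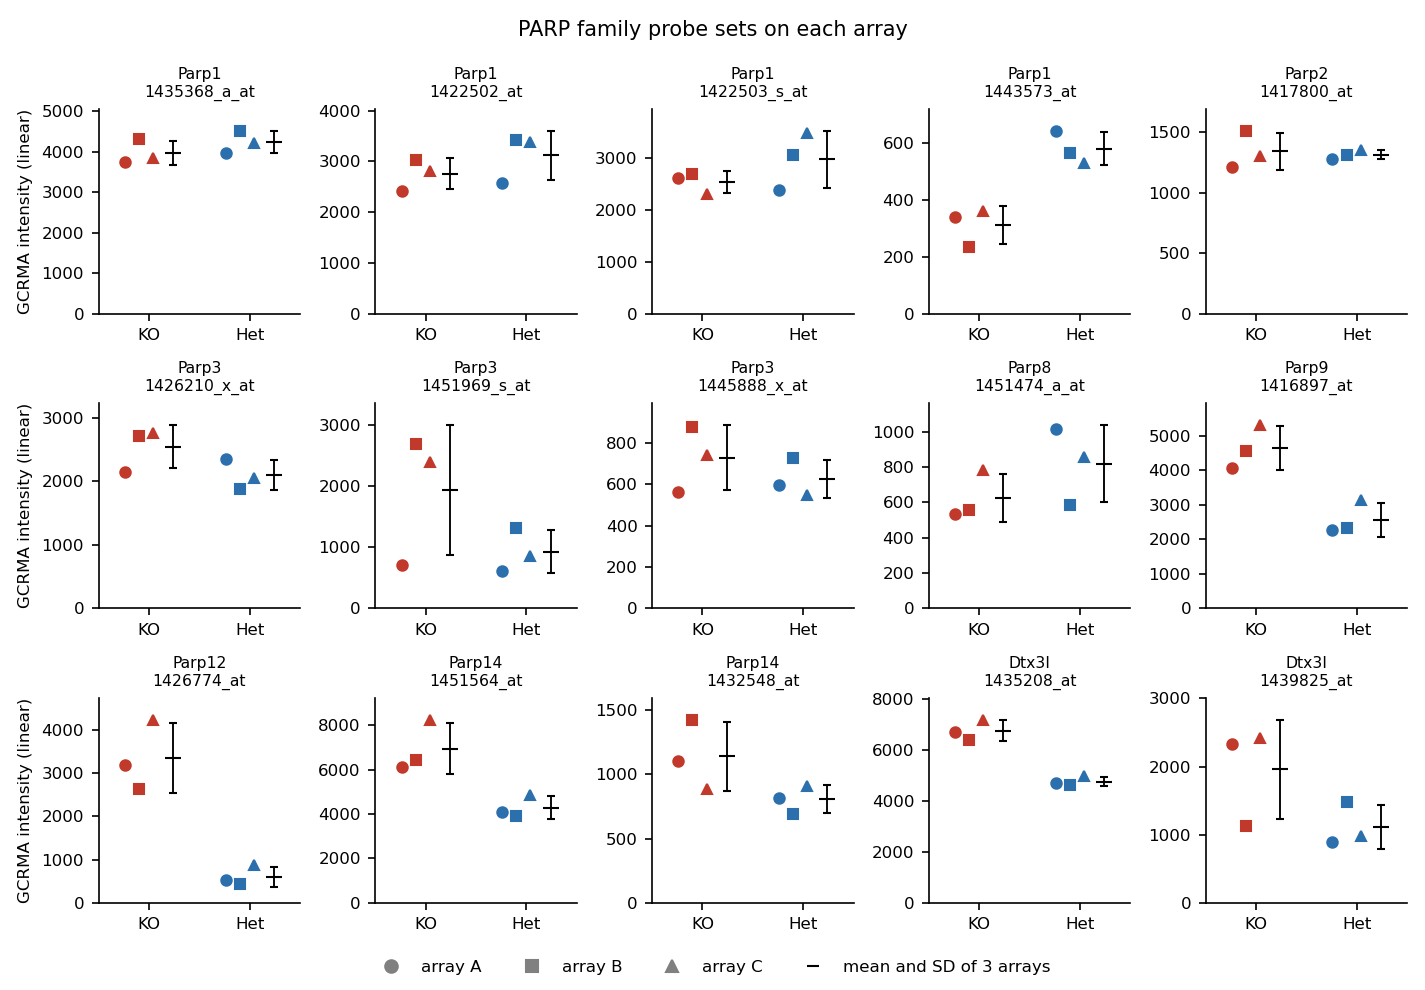
Intensity of each of the 15 PARP family probe sets (vertical axes, linear scale from 0) on the 3 KO arrays (red, left) and the 3 Het arrays (blue, right), with circles, squares and triangles for arrays A, B and C and the mean with its SD in black. The KO points of Parp12 lie between 2626 and 4228, all above the Het points, which lie between 433.8 and 864.9.

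Parp9 is a macrodomain protein that works as a pair with Dtx3l. Its probe set read 4056, 4565 and 5300 in KO A, B and C, against 2256, 2316 and 3133 in Het A, B and C. The groups did not overlap, and the means of 4640 ± 625 in KO and 2568 ± 490 in Het (SD, n = 3 each) gave a log2 difference of 0.86 ± 0.17 (SE), or 1.82-fold.

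Dtx3l itself had 2 probe sets that both read higher on average in KO but differed in spread. The brighter one (1435208_at) read 6675, 6361 and 7168 in KO A, B and C, against 4688, 4594 and 4958 in Het A, B and C. These groups did not overlap, and with a log2 difference of 0.50 ± 0.08 it was the steadiest of the 15, its within-group SD of 0.07 being larger than that of only 12.5% of tested probe sets. The dimmer one (1439825_at) read 2334, 1124 and 2426 in KO A, B and C, against 886.6, 1487 and 982.6 in Het A, B and C. Here KO B lay below Het B, so the groups overlapped, and the log2 difference was 0.77 ± 0.36 with all arrays and 1.35 without both B arrays.

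Parp14, a large macrodomain protein known as a cofactor of STAT6 in IL-4 signalling, also had 2 probe sets. The brighter one (1451564_at) read 6134, 6441 and 8246 in KO A, B and C, against 4084, 3901 and 4865 in Het A, B and C, with no overlap and a log2 difference of 0.69 ± 0.15 (SE), or 1.61-fold. The dimmer one (1432548_at) read 1107, 1425 and 885.8 in KO A, B and C, against 815.6, 692.4 and 909.8 in Het A, B and C. Its groups overlapped, because KO C lay below Het C, and its log2 difference was 0.48 ± 0.20, or 0.20 without both B arrays. In the RefSeq gene table (GRCm38.p6) Parp14, Dtx3l and Parp9 follow each other on chromosome 16 with no other protein-coding gene between them, while Parp12 lies on chromosome 6.

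The brightest probe sets of Parp9, Parp12, Parp14 and Dtx3l shared their array order in part. In all 4, array C read highest of the KO arrays and array C also read highest of the Het arrays. That was so for 9.31% of all tested probe sets, and for 0 of the brightest probe sets of the other 4 measured members. These 4 probe sets were picked after their values were seen. The dimmer probe sets of 2 of these genes broke the order. That of Parp14 was lowest of the KO arrays on C (885.8), and that of Dtx3l was highest of the Het arrays on B (1487). Of 19 measured antiviral interferon-stimulated genes 13 also read highest on array C in both groups, and of 15 measured interferon signalling genes 3 did.

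Of the 8 probe sets of the DNA break members, 7 overlapped between the genotypes, where 26.2% of all tested probe sets did not overlap, so nothing is read from this count. Parp1, the main poly(ADP-ribose) polymerase of the nucleus, had 4 probe sets. The brightest (1435368_a_at) read 3757, 4309 and 3852 in KO A, B and C, against 3971, 4519 and 4225 in Het A, B and C, with overlapping groups and a difference of -0.09 ± 0.09 in log2 units (SE). A pair of others were designed from the same sequence record and also overlapped between the groups. Of these 1422502_at read 2420, 3021 and 2814 in KO A, B and C, against 2568, 3423 and 3374 in Het A, B and C (log2 difference -0.18 ± 0.15), and 1422503_s_at read 2623, 2709 and 2315 in KO A, B and C, against 2393, 3063 and 3491 in Het A, B and C (-0.21 ± 0.16). The dimmest (1443573_at), for which the annotation gives no sequence record, read 340.3, 233.8 and 360.6 in KO A, B and C, against 642.3, 566.0 and 528.0 in Het A, B and C. There every KO array was below every Het array, at a log2 difference of -0.91 ± 0.19, so the probe sets of Parp1 agree in sign but not in size.

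Parp2, the closest relative of Parp1 in break repair, was nearly level on its 1 probe set. It read 1214, 1511 and 1303 in KO A, B and C, against 1274, 1315 and 1353 in Het A, B and C. The log2 difference of 0.03 ± 0.10 changed sign in 3 of the 15 other settings tried and stayed between -0.06 and 0.10.

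Parp3 had 3 probe sets of suffix x or s, a class whose probes can match more than 1 transcript. The one with the largest spread (1451969_s_at) read 717.7, 2690 and 2399 in KO A, B and C, against 617.8, 1312 and 852.0 in Het A, B and C. KO A lay below Het B and Het C, the within-group SD of 0.84 on the log2 scale was larger than that of 96.2% of tested probe sets, and the difference was 0.92 ± 0.58 (SE). The brightest (1426210_x_at), designed from the same sequence record, read 2152, 2720 and 2757 in KO A, B and C, against 2345, 1880 and 2055 in Het A, B and C, a difference of 0.28 ± 0.14. The dimmest (1445888_x_at) read 563.5, 876.5 and 742.5 in KO A, B and C, against 598.0, 726.9 and 549.4 in Het A, B and C, which gave 0.21 ± 0.20. The groups overlapped on all 3.

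Parp8, a member whose role is less well known, read 532.7, 557.8 and 781.3 in KO A, B and C, against 1015, 583.9 and 856.2 in Het A, B and C. The groups overlapped and the log2 difference was -0.38 ± 0.25 (SE).

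**Figure D2:**
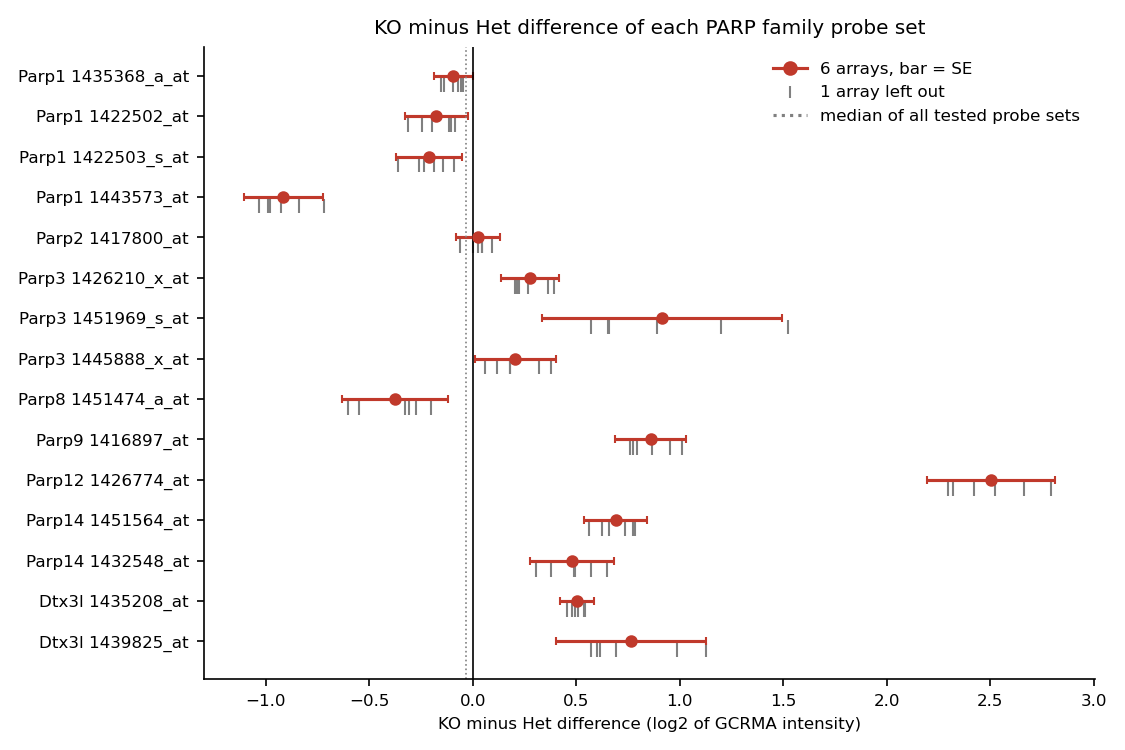
KO minus Het difference of each of the 15 probe sets on the log2 scale (horizontal axis), with the SE as a bar, the values with 1 array left out as grey ticks, and the median of all tested probe sets as a dotted line. Parp12 lies at 2.50, and the other 14 probe sets lie between -0.91 and 0.92.

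In the fit over all tested probe sets (limma, Benjamini-Hochberg adjustment, threshold 0.05), 1 of the 15 family probe sets was past the threshold, that of Parp12, which was higher in KO. Of all tested probe sets 1.78% were past it, and 1.11% were past it and higher in KO. Before adjustment 5630 of the 29507 tested were at a p under 0.05, in either direction (limma), which is the background for the unadjusted counts of the lists below. The groups did not overlap on 5 family probe sets, 4 higher in KO (Parp9, Parp12, Parp14 and Dtx3l) and 1 lower (Parp1), and that separation held for 26.2% of all tested probe sets. Since the family was picked with this comparison known, nothing is read from these counts. The median difference of the 15 was 0.28, beside -0.03 over all tested probe sets, and 10 of the 15 were positive, beside 42.8% of all. The call of Parp12 was lost in each fit without 1 array, where limma called 0 to 176 probe sets. It was also lost without both B arrays, where the log2 difference of Parp12 was 2.46 and limma called 0 probe sets, with 5274 at an unadjusted p under 0.05.

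Genes whose pattern over the 6 arrays was nearest to that of Parp12 were found by the root mean square difference of log2 values, each centred on its own mean, among 23006 tested probe sets of other genes. The nearest was Adam19, a cell-surface metalloproteinase, at 0.21, followed by Gadd45g, a stress-inducible gene, at 0.24, Gbp2, an interferon-induced GTPase, at 0.26, Ncf1, a subunit of the phagocyte NADPH oxidase, at 0.28, and Ccdc102a at 0.31. The median over those probe sets was 1.32. Adam19 read 1845, 1961 and 2187 in KO A, B and C, against 364.4, 275.4 and 678.8 in Het A, B and C. Gbp2 read 30158, 24277 and 37109 in KO A, B and C, against 6069, 5890 and 6959 in Het A, B and C. Both genes were higher on every KO array than on any Het array, and the log2 differences of the 5 genes ran from 2.26 to 2.63. The measure takes in the KO minus Het difference itself. Within the family the nearest probe set was that of Parp9, at 0.85, and the farthest the dimmest of Parp1, at 1.75.

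**Figure D3:**
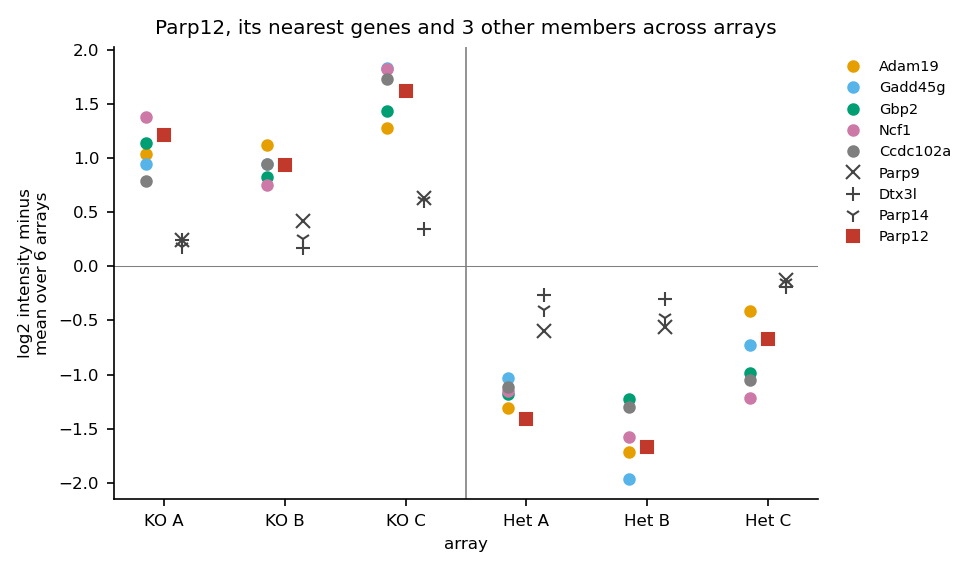
Log2 intensity minus the gene's own mean over the 6 arrays (vertical axis) for Parp12 (red squares), the 5 genes nearest to it (coloured circles) and the brightest probe sets of Parp9, Dtx3l and Parp14 (dark grey crosses and tripods) on the KO arrays (left) and the Het arrays (right). Parp12 and its nearest genes span a wider range than the other 3 members, and Parp12 is highest on array C within each group.

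The rest of the family was measured by 1 probe set a gene, the brightest. Of 8 other PARP genes 0 passed (limma; before adjustment 2 were higher and 1 was lower at a p under 0.05), with a median log2 difference of 0.10 beside -0.03 over all 13280 genes measured. Parp16, which sits in the endoplasmic reticulum membrane, read 216.5, 262.1 and 256.1 in KO A, B and C, against 450.2, 329.8 and 390.7 in Het A, B and C. It differed by -0.67 ± 0.15 in log2 units (SE; limma, adjusted p = 0.0897). The tankyrase gene Tnks gave 0.27 ± 0.10 (adjusted p = 0.225), and a dimmer Tnks probe set had the opposite sign. Zc3hav1, the antiviral protein ZAP, which resembles Parp12 in its zinc fingers, gave 0.18 ± 0.16 and was named after its value was seen.

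Genes that remove or degrade ADP-ribose were measured next. Of 8 hydrolases and erasers all 8 were below 0 on their brightest probe set (7 of 8 with median centring of the arrays, without Het B, without Het C and without both B arrays, and a dimmer Nudt16 probe set was above 0), with a median of -0.39, but 0 passed (limma; before adjustment 0 were higher and 3 lower at a p under 0.05). The median over all genes measured was -0.03, and 42.8% of all tested probe sets were positive. Among the 8, Nudt5 was nearly level at -0.01. Macrod2 read 19.3 to 50.3, under the array medians of 58.1 to 61.5. Macrod1, a macrodomain hydrolase that removes single ADP-ribose units, read 140.4, 194.1 and 191.8 in KO A, B and C, against 328.4, 284.3 and 298.4 in Het A, B and C. Its groups did not overlap and its KO minus Het value in log2 units was -0.80 ± 0.15 (SE; limma, adjusted p = 0.0685). Oard1, which frees ADP-ribose from acidic residues, gave -0.43 ± 0.15 (adjusted p = 0.209). Of 10 readers and single-strand break repair genes 0 passed (before adjustment 0 were higher and 1 was lower at a p under 0.05), at a median of -0.05. Polb, the gene of DNA polymerase beta, gave -0.47 ± 0.18 (adjusted p = 0.244) and Macroh2a1, a histone with a macrodomain, 0.17 ± 0.11 (adjusted p = 0.471).

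Nampt, the rate-limiting enzyme by which cells recycle nicotinamide into the NAD that PARP proteins consume, rose in KO. It read 1579, 1460 and 1842 in KO A, B and C, against 827.9, 873.5 and 862.5 in Het A, B and C. The means were 1627 ± 196 in KO and 855 ± 23.8 in Het (SD, n = 3 each), a 1.90-fold difference (log2 0.92 ± 0.11, SE; limma, adjusted p = 0.0275). It was the 1 of 11 measured genes of NAD supply and use that passed, with 0 lower, beside 1.37% of all genes past the threshold and higher and 0.956% past it and lower. The median of that list was -0.14. Of 4 other Deltex genes 0 passed (limma; before adjustment 1 was higher and 0 lower at a p under 0.05), with Dtx4 at 0.47 ± 0.17 (adjusted p = 0.231) and Dtx1 at 0.81 ± 0.34 (adjusted p = 0.279).

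**Figure D4:**
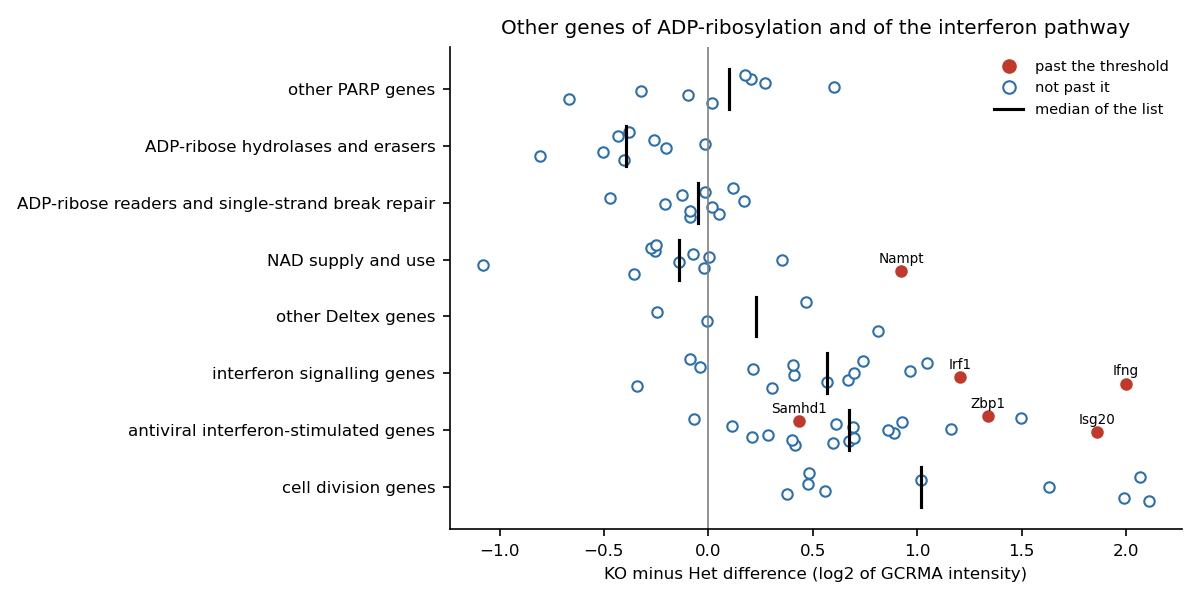
KO minus Het log2 difference (horizontal axis) of each measured gene of 8 lists, by its brightest probe set, with genes past the threshold filled and named and the median of each list as a black bar. All 8 hydrolases and erasers lie below 0 (7 of 8 with median centring), and the 6 named genes are Nampt, Ifng, Irf1, Isg20, Zbp1 and Samhd1.

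The interferon pathway was measured beside the family. Of 15 interferon signalling genes Ifng and Irf1 rose, 0 fell and 13 did not pass, beside 1.37% of all genes past the threshold and higher. The median was 0.57, 12 of the 15 were positive, and before adjustment 10 were higher and 1 was lower at a p under 0.05. Over all tested probe sets 42.8% were positive, and 5630 of 29507 were at an unadjusted p under 0.05 in either direction (limma). Irf1, a transcription factor induced by interferon gamma, read 8211, 9232 and 11213 in KO A, B and C, against 3500, 4885 and 4051 in Het A, B and C (log2 1.21 ± 0.17, SE; limma, adjusted p = 0.0424). The KO and Het arrays of both genes did not overlap. Ifng, the gene of interferon gamma, read 663.4, 750.6 and 1104 in KO A, B and C, against 240.6, 203.8 and 174.7 in Het A, B and C (limma, adjusted p = 0.0263). Of 19 antiviral interferon-stimulated genes Isg20 (1.86 ± 0.22, SE; limma, adjusted p = 0.0277), Zbp1 (1.34 ± 0.18; adjusted p = 0.0377) and Samhd1 (0.44 ± 0.07) rose, 0 fell and 16 did not pass, again beside 1.37% of all genes. The median was 0.67, 18 of the 19 were positive, and before adjustment 10 were higher and 0 lower at a p under 0.05, beside the same shares of all tested probe sets. Samhd1, which depletes nucleotides, read 16458, 16566 and 16563 in KO A, B and C, against 12465, 11861 and 12326 in Het A, B and C (adjusted p = 0.0489). These genes and the family were measured on the same arrays, so the lists are not separate support for each other. None of the 6 list genes that passed, Nampt included, was called in any fit without 1 array or without both B arrays. With all arrays kept, Irf1 (limma, adjusted p = 0.0574) and Zbp1 (0.0515) did not pass with no filter, and Samhd1 did not pass with a stricter filter (0.0521), median centring (0.0606) or quantile normalization (0.0676).

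Markers of cell types were read beside these results, by the sum of the intensities of a list's brightest probe sets. A sum weights bright genes most and is compared only between arrays. For 6 CD4 and regulatory T cell genes the sum was 87928 to 96249 in KO and 80717 to 88661 in Het, over genes that differed in direction. Among them Ctla4 read 28035 to 34748 in KO and 15799 to 20661 in Het, and the brighter Il2ra probe set 5262 to 10148 in KO and 4062 to 4538 in Het, so both were higher on every KO array. Foxp3 (log2 -0.55 ± 0.23, SE) was lower on KO A and KO C than on every Het array, while KO B lay within the Het range. Cd3d read 26535 to 28922 in KO and 31906 to 34413 in Het, so it was lower on every KO array, and 0 of the 6 passed the threshold (limma; before adjustment 2 were higher and 1 was lower at a p under 0.05). For 4 B cell genes the sum was 1881, 5015 and 2043 in KO A, B and C, against 1040, 2449 and 1074 in Het A, B and C. For the 2 plasma cell genes it was 461.4, 3269 and 2695 in KO A, B and C, against 87.1, 243.7 and 88.5 in Het A, B and C, so these sums did not overlap. The 2 genes differed in direction. Jchain read 388.8 to 3197 in KO and 11.5 to 163.1 in Het. Sdc1, on its brightest probe set, was lower on every KO array, at 72.2 to 72.6 against 74.9 to 80.6 in Het. Groups that do not overlap were found for 26.2% of all tested probe sets. The CD8 T cell sum (2 genes) was 636.3 to 4415 in KO and 650.7 to 2257 in Het, the NK cell sum (3 genes) 119.6 to 1652 in KO and 102.2 to 598.8 in Het, and the myeloid sum (5 genes) 446.5 to 1655 in KO and 271.2 to 592.2 in Het. The sums of these other cell types were highest on the B array of each group. Family probe sets varied in this. Parp12 and the brighter Dtx3l probe set were lowest on the B array of each group. The brightest Parp1 probe set and the Parp3 probe set with the largest spread were highest on it. Among the markers, Klre1, Ncr1, Cd14 and Itgam lay below the array median on all 6 arrays. Cell division genes were higher in KO on average in 9 of 9, at a median log2 difference of 1.02, with 0 past the threshold (limma; before adjustment 5 were higher and 0 lower at a p under 0.05). Of all tested probe sets 42.8% had a positive difference. The size of the median of 1.02 rests in part on Het A, where every gene of the list but Tyms was lowest of the 6 arrays. Rrm2, the gene at the median, stood at 1967 on Het A, beside 10855 on Het B and 9258 on Het C. Its KO values were 10710 to 13791. Top2a stood at 706 on Het A, 4148 on Het B and 3160 on Het C, below KO values of 6975 to 11863. All 9 differences stayed above 0 without Het A, but their median was not computed there. Pcna (log2 0.48, adjusted p = 0.184) and Ccna2 (2.11, adjusted p = 0.191) had the smallest p. The part of these markers and of cell division in the family's differences was not tested.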

How the data were processed

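CD4+YFP+ T cells were profiled on 6 arrays. The authors deposited GCRMA-normalized probe set intensities, per the labels, with no software version named. They span 1.23 to 170023 and were taken as linear and turned into log2. GCRMA sets dim values close to a common minimum, so folds from there can be inflated. After removal of 64 control probe sets and 1 lacking values, the 29507 with log2 above 4 on at least 3 arrays were tested. The difference between KO and Het was fitted in limma 3.58.1 under R 4.3.3 (lmFit, eBayes, no covariates, two-sided) with Benjamini-Hochberg adjustment over all of them. The steps were also run on simulated data with noise drawn separately for each probe set. Such data lack variation shared across an array, so that run does not vouch for the calls made here. Differences are KO minus Het in log2. The rule for named genes took every family probe set, up to 4 list genes past the threshold or, with 0, the 2 of smallest p, and the 5 genes nearest to Parp12. Further names were added after their values were seen. Members, lists and tests were chosen with earlier results of these data known. A list gene counts by its probe set with the highest mean. Listed genes without a probe set of a single symbol were not analysed here, and Bst1 was under the filter. Alternatives changed the filter, the normalization, the fit, the offset and the arrays used. The 3 arrays per group limit the precision. Promoters are from RefSeq (GRCm38.p6).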

Additional observations from a re-analysis of the deposited data

How the results depend on the processing

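Over 15 other settings, 14 of the 15 family probe sets kept the sign of their difference, and Parp2, near 0, kept it in 12. Parp12 ranged from 2.30 to 2.79 and passed in 7 of the 15. The family count of 1 was 2 with no filter, with an intensity trend and robust estimation, with array weights and with an offset of 16, the addition in each being the brighter Dtx3l probe set. All tested probe sets past the threshold numbered 525 and were 957 with array weights. Leaving out 1 array gave 0 to 176 of all, 0 in the family and 0 in the lists, against 6 list genes with all arrays. The list count was 4 with no filter (Irf1 and Zbp1 lost) and 5 with quantile normalization (Samhd1 lost). The 176 came without KO A. Without both B arrays all 3 counts were 0. With the replicate letter as a block all 3 counts were 0 (limma; 5365 at an unadjusted p under 0.05). The block left the Parp12 difference at 2.50 and changed its SE from 0.31 to 0.12. Its unadjusted p was 4.28e-05 with the block and 0.000244 without it (limma; adjusted p = 0.0801 and 0.0297). Same-letter arrays of KO and Het correlated at 0.283 (A), -0.171 (B) and 0.0118 (C) in their deviations from the group means, and KO B correlated best with Het C (0.374). These correlations do not settle whether the letters pair the arrays, since the sums of other cell types were highest on B in each group. The main fit leaves the letters out, because the labels do not say what they share. The causes of these changes were not tested, except that fits with fewer arrays have fewer samples.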
